A study of Caenorhabditis elegans with 8 samples.

Results

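The genes that make and desaturate fatty acids were followed in whole adult Caenorhabditis elegans after treatment aimed at TORC1 in neurons. The set was chosen by symbol and holds 10 of the 46739 genes counted: the synthesis enzymes pod-2 and fasn-1, the transcription factor sbp-1, and the desaturases fat-1 to fat-7. All 10 were found in the annotation and all 10 passed the filter on low counts. RNA-seq was made from 4 libraries of worms given 5-Ph-IAA and 4 libraries of worms given ethanol. Both groups were of a single genotype, labelled as a neuronal auxin-inducible degron for DAF-15, treated from L4 for 24 h and collected on day 1 of adulthood. DAF-15 is the Raptor of worms, the TORC1 subunit that binds substrates, and 5-Ph-IAA is an auxin analog that sends the tagged protein to the proteasome. Neither the promoter behind the neuronal degradation nor the dose of 5-Ph-IAA is stated in the labels. No group without the degron was analysed here, so an effect of the compound and an effect of losing DAF-15 cannot be told apart.

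Fatty acid synthesis starts when acetyl-CoA carboxylase makes malonyl-CoA, which fatty acid synthase joins into palmitic acid. Palmitic acid is desaturated directly or first elongated to stearic acid, which is desaturated to oleic acid, the starting point of the polyunsaturated fatty acids, all of which C. elegans can make for itself. In worms much of this takes place in the intestine, the main fat store. The worm SREBP, sbp-1, is a known activator of these genes, and in mammalian cells TORC1 is known to promote SREBP activity.

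Reads counted in genes numbered between 7354710 and 10893322 per library, and the 10 genes together held between 0.310% and 0.317% of them with 5-Ph-IAA and between 0.294% and 0.335% with ethanol. Levels are CPM, which scale each count to the size of its library, here with TMM factors. The test was edgeR's quasi-likelihood test over all 12021 tested genes, with Benjamini-Hochberg adjustment and a threshold of 0.05. The daf-15 transcript lay between 111.9 and 127.0 CPM with 5-Ph-IAA and between 111.4 and 127.2 CPM with ethanol. Degradation acts on the protein, so this level does not check the treatment. The labels do not say whether the replicates are separate cultures, and the spread behind the p-values may therefore be technical. The libraries carry numbers 1 to 4 in both groups, and a second fit used the number as a block. Fold changes, SE, intervals and p-values in edgeR are from the fit without the block unless the block is named.

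None of the 10 genes passed the test. In edgeR 0 passed without the block and 0 with it, against 0.0998% and 0.732% of all tested genes, and 0 passed with DESeq2 without or with the block, against 0.241% and 0.2% of all genes with an adjusted p there. At an unadjusted p under 0.05 there was 1 gene without the block (fat-3) and 2 with it (fat-3 and fat-7), where 4.41% and 6.91% of all tested genes lay. The fold changes, 5-Ph-IAA over ethanol, ran from 0.910 for fat-3 to 1.135 for fat-7, and 7 of the 10 genes lay within 5% of equal levels. The median log2 fold change was 0.011, against -0.00094 over all tested genes, with 6 genes above 0 and 4 below. For 8 of the 10 genes the whole 95% interval of the fold change without the block lay between 0.8291 and 1.187. Those of fat-5 and fat-7 reached further, to 1.603-fold and 1.547-fold without the block and to 1.428-fold and 1.252-fold with it. The libraries of the groups overlapped for all 10 genes, where 2.65% of tested genes had no overlap. Whole worms mix tissues, and in such RNA fewer cells of a type and less RNA per cell cannot be told apart.

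**Figure D1:**
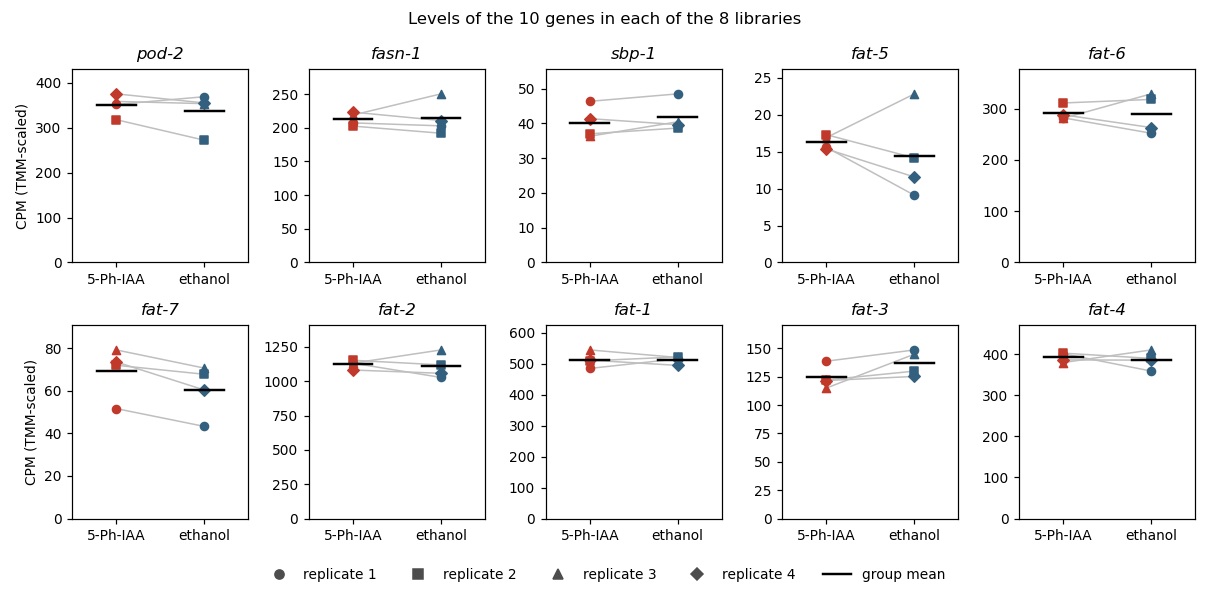
Level of each of the 10 genes in CPM on TMM-scaled library sizes (vertical axes, each from 0) in the 4 libraries given 5-Ph-IAA (red, left) and the 4 given ethanol (blue, right). Marker shapes give the replicate number, grey lines join libraries of the same number and black bars are group means. The groups overlap in every panel, and the ethanol libraries of fat-5 spread from 9.09 to 22.8 CPM.

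The enzymes at the start of the pathway stood at nearly the same level in both groups. The gene pod-2 (WBGene00004076, chromosome II: 1136785 to 1152705, plus strand, on WBcel235 from Ensembl, as for all coordinates here) codes for acetyl-CoA carboxylase, which makes the malonyl-CoA that commits carbon to fat. Its level was 351.8, 317.7, 358.5 and 375.3 CPM in 5-Ph-IAA replicates 1 to 4, against 368.9, 272.1, 353.5 and 355.0 CPM in ethanol replicates 1 to 4. Ethanol replicate 2 lay far below the other ethanol libraries, and 5-Ph-IAA replicate 2 was the lowest of its group too. For pod-2 5-Ph-IAA over ethanol gave a log2 fold change of 0.057 (SE 0.087; adjusted p = 0.999 in edgeR), with a 95% interval of 0.912-fold to 1.187-fold. Without ethanol replicate 2 it was -0.033. Of the exon bases of pod-2, 139 are shared with a gene on the other strand, and whether the counting used strand is not stated in the labels.

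The gene fasn-1 (WBGene00009342, I: 8975366 to 8986540, minus strand) codes for fatty acid synthase, the large enzyme that builds palmitic acid. It had 207.3, 202.5, 219.0 and 223.3 CPM in 5-Ph-IAA replicates 1 to 4, against 202.9, 192.0, 250.5 and 210.8 CPM in ethanol replicates 1 to 4. The highest and the lowest value were both ethanol libraries, and all 4 5-Ph-IAA libraries lay between them. On the log2 scale the difference was -0.0063 (SE 0.066; adjusted p = 0.999 in edgeR), with an interval of 0.905-fold to 1.096-fold.

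The gene sbp-1 (WBGene00004735, III: 11428367 to 11442566, minus strand) codes for the worm SREBP, a membrane-bound factor that is cut free and turns on lipid synthesis genes. It had 46.3, 37.0, 36.3 and 41.4 CPM in 5-Ph-IAA replicates 1 to 4, against 48.5, 38.6, 40.5 and 39.6 CPM in ethanol replicates 1 to 4. Replicate 1 was the highest library in both groups. Of the exon bases 48 are shared with a gene on the other strand. The fold change on the log2 scale was -0.046 (SE 0.094; adjusted p = 0.999 in edgeR), with an interval of 0.847-fold to 1.108-fold. These are transcript levels, and the cleavage that activates the protein was not measured.

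The genes fat-5, fat-6 and fat-7 code for the delta-9 desaturases, which place the first double bond. The enzyme made from fat-5 acts mainly on palmitic acid. Its gene (WBGene00001397, V: 17725004 to 17726818, plus strand) was the scarcest of the desaturases, with 15.6, 17.3, 16.9 and 15.4 CPM in 5-Ph-IAA replicates 1 to 4, against 9.09, 14.1, 22.8 and 11.6 CPM in ethanol replicates 1 to 4. The 5-Ph-IAA libraries sat close together, with a coefficient of variation of 5.88%, and the ethanol libraries spread on both sides of them at 41.5%. Of its exon bases 28 are shared with genes on the other strand. Counts behind these levels were 129 to 154 reads with 5-Ph-IAA and 66 to 180 reads with ethanol. This gave a log2 fold change of 0.18 (SE 0.23; adjusted p = 0.999 in edgeR), with an interval of 0.799-fold to 1.603-fold. It was 0.026 without ethanol replicate 1, 0.077 without ethanol replicate 4 and 0.47 without ethanol replicate 3 (edgeR adjusted p = 0.998, 0.994 and 0.627). With the block and all libraries it was 0.23 (SE 0.14, edgeR adjusted p = 0.850), with an interval of 0.958-fold to 1.428-fold. At this depth and spread, the fold changes inside each interval are those that its fit did not exclude at 95%. Equal levels lie inside both intervals.

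The enzymes made from fat-6 and fat-7 act mainly on stearic acid and produce oleic acid. The gene fat-6 (WBGene00001398, IV: 11913692 to 11915687, minus strand) had 282.3, 311.3, 281.4 and 288.2 CPM in 5-Ph-IAA replicates 1 to 4, against 252.2, 318.2, 329.1 and 263.3 CPM in ethanol replicates 1 to 4. Again the 5-Ph-IAA libraries all fell inside the range of the ethanol libraries. The means were 290.8 ± 13.98 CPM with 5-Ph-IAA and 290.7 ± 38.6 CPM with ethanol (SD, n = 4 each). On the log2 scale the difference was 0.00029 (SE 0.077; adjusted p = 0.999 in edgeR), with an interval of 0.893-fold to 1.121-fold.

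The gene fat-7 (WBGene00001399, V: 7151353 to 7153146, minus strand), often used as a readout of the nuclear receptor NHR-49, had 51.6, 72.0, 79.2 and 73.5 CPM in 5-Ph-IAA replicates 1 to 4, against 43.3, 67.7, 70.6 and 60.3 CPM in ethanol replicates 1 to 4. Replicate 1 was the lowest library of both groups, and within each number the 5-Ph-IAA library was above the ethanol library. This was so in 4 of 4 pairs, as it was for 7.17% of all tested genes. The fold change on the log2 scale was 0.18 (SE 0.19; adjusted p = 0.999 in edgeR), with an interval of 0.832-fold to 1.547-fold. It was 0.059 without ethanol replicate 1, 0.11 without 5-Ph-IAA replicate 3 and 0.30 without 5-Ph-IAA replicate 1 (edgeR adjusted p = 0.998, 0.999 and 0.998). With the block and all libraries it was 0.20 (SE 0.064, edgeR adjusted p = 0.256), a 1.146-fold difference with an interval of 1.048-fold to 1.252-fold. The genes fat-6 and fat-7 are known to be closely related in sequence. Reads that could belong to either were not measured here, so their separate values are uncertain to that extent.

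Per kilobase of exon the 3 delta-9 genes can be set side by side, with that limit on the split between fat-6 and fat-7. The gene fat-6 made up 76.7 ± 2.66% of their summed level with 5-Ph-IAA and 79.1 ± 2.24% with ethanol (SD, n = 4 each). The share of fat-7 was 18.8 ± 2.71% with 5-Ph-IAA and 16.9 ± 1.64% with ethanol, and that of fat-5 was 4.54 ± 0.196% with 5-Ph-IAA and 4.03 ± 1.11% with ethanol. The ranges of the groups overlapped for each share. The summed level itself was 325.5 ± 18.2 CPM per kb with 5-Ph-IAA and 316.1 ± 47.8 CPM per kb with ethanol.

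**Figure D2:**
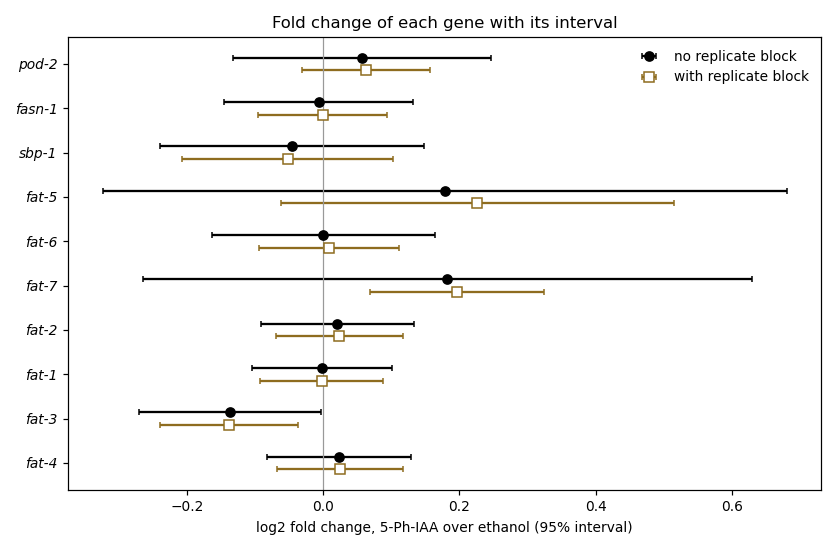
Log2 fold change of each gene, 5-Ph-IAA over ethanol (horizontal axis), with its 95% interval from edgeR without the replicate block (black circles) and with it (brown squares). Without the block the intervals of fat-5 and fat-7 are the widest, and with it those of fat-5 and sbp-1. The intervals of fat-3, and of fat-7 with the block, do not reach 0, although neither gene passed after adjustment over all genes.

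The remaining desaturases turn oleic acid into polyunsaturated fatty acids. The gene fat-2 (WBGene00001394, IV: 13323873 to 13326395, plus strand) codes for the enzyme that makes linoleic acid from oleic acid, a step that mammals lack. It was the most abundant of the set, with 1131, 1152, 1131 and 1081 CPM in 5-Ph-IAA replicates 1 to 4, against 1027, 1119, 1228 and 1058 CPM in ethanol replicates 1 to 4. The 5-Ph-IAA libraries lay within the ethanol range. This gave a log2 fold change of 0.021 (SE 0.055; adjusted p = 0.999 in edgeR), with an interval of 0.939-fold to 1.097-fold.

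The gene fat-1 (WBGene00001393, IV: 13315644 to 13318811, plus strand) codes for an omega-3 desaturase, known for turning omega-6 into omega-3 fatty acids when it is placed in mammals. It lies 5061 bases upstream of fat-2 on the same strand. It had 485.1, 509.6, 544.8 and 511.9 CPM in 5-Ph-IAA replicates 1 to 4, against 516.1, 522.1, 520.4 and 494.8 CPM in ethanol replicates 1 to 4. For this gene the ethanol libraries were the closer together, with a coefficient of variation of 4.79% for 5-Ph-IAA and 2.46% for ethanol. On the log2 scale the difference was -0.0016 (SE 0.050; adjusted p = 0.999 in edgeR), with an interval of 0.931-fold to 1.072-fold, the narrowest of the 10 on the log2 scale.

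The front-end desaturases fat-4 and fat-3 lie side by side on chromosome IV, 796 bases apart on the plus strand. The gene fat-4 (WBGene00001396, IV: 9799429 to 9802226) codes for the delta-5 desaturase that makes arachidonic and eicosapentaenoic acid. It had 401.7, 403.1, 380.1 and 386.6 CPM in 5-Ph-IAA replicates 1 to 4, against 359.4, 390.2, 410.9 and 385.9 CPM in ethanol replicates 1 to 4. The groups overlapped, and the fold change on the log2 scale was 0.023 (SE 0.051; adjusted p = 0.999 in edgeR), with an interval of 0.945-fold to 1.093-fold.

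Its neighbour fat-3 (WBGene00001395, IV: 9803023 to 9806119) codes for the delta-6 desaturase, which acts before fat-4 in the same route. It had 138.7, 122.2, 115.1 and 121.7 CPM in 5-Ph-IAA replicates 1 to 4, against 148.6, 130.0, 144.9 and 125.3 CPM in ethanol replicates 1 to 4. The 5-Ph-IAA library was the lower in 4 of 4 pairs, as it was for 7.02% of all tested genes, and 5-Ph-IAA replicate 1 lay among the ethanol libraries. The means were 124.4 ± 10.1 CPM with 5-Ph-IAA and 137.2 ± 11.3 CPM with ethanol (SD, n = 4 each). This gave a log2 fold change of -0.14 (SE 0.065; adjusted p = 0.999 in edgeR), with an interval of 0.8291-fold to 0.998-fold. With the block it was -0.14 (SE 0.050, edgeR adjusted p = 0.393), with an interval of 0.847-fold to 0.9745-fold. Without replicate 3 in the blocked fit it was -0.079 (edgeR adjusted p = 0.966).

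Levels compared between genes must allow for transcript length, so CPM were divided by the exon length of the annotation. Over all 8 libraries fat-2 averaged 889.1 CPM per kb, and 155 of the 11962 tested genes with a length stood higher. It was followed by fat-1 at 362.4, fat-4 at 253.1 and fat-6 at 249.4 CPM per kb. Next came fat-3 at 87.7, fat-7 at 57.5, pod-2 at 50.2 and fasn-1 at 25.3 CPM per kb, with fat-5 at 13.9 and sbp-1 at 12.1 CPM per kb at the lower end. The order was the same in both groups. The libraries of neighbours in this order overlapped for fat-4 and fat-6, for fat-7 and pod-2 and for fat-5 and sbp-1, and did not overlap for the other neighbours. The gene fat-3, of the delta-6 enzyme, stood below its neighbour fat-4 in every library.

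**Figure D3:**
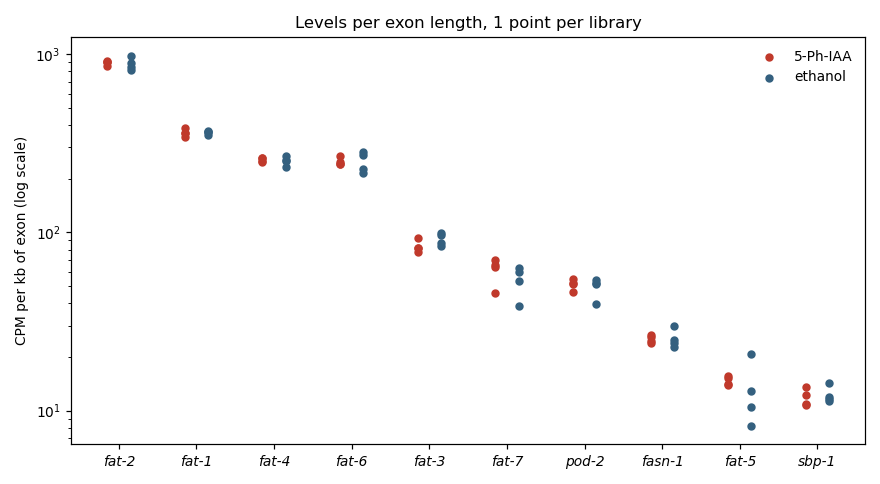
Level of each gene in CPM per kilobase of exon (vertical axis, log scale), 1 point per library, 5-Ph-IAA in red on the left and ethanol in blue on the right of each gene. Genes run from the highest to the lowest mean, from fat-2 at 889.1 to sbp-1 at 12.1 CPM per kb.

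The desaturase genes also varied between libraries of 1 group, and several did so in the same way. In ethanol the libraries stood in the order replicate 1, 4, 2 and 3 from low to high for fat-2, fat-4, fat-5, fat-6 and fat-7. This order was noticed after the values were seen, and 4.37% of all tested genes had it. Ethanol replicate 1 lay below its group mean, with deviations of -0.105 for fat-2, -0.104 for fat-4, -0.578 for fat-5, -0.195 for fat-6 and -0.459 for fat-7 on the log2 scale. Ethanol replicate 3 lay above it by 0.152, 0.0895, 0.75, 0.188 and 0.249 for the same genes in the same order. The genes fat-1, fat-3, fasn-1, pod-2 and sbp-1 did not have this order, and fat-3, pod-2 and sbp-1 had their highest ethanol value in replicate 1. With 5-Ph-IAA the libraries of fat-2, fat-4, fat-5 and fat-6 differed less, with replicate 2 the highest for all 4, as for 26.2% of all tested genes. For fat-7 replicate 3 was the highest with 5-Ph-IAA. Its coefficient of variation was 17.4% with 5-Ph-IAA and 20.3% with ethanol. Of the 10 genes 8 had the larger coefficient of variation in ethanol, as had 56.4% of all tested genes.

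**Figure D4:**
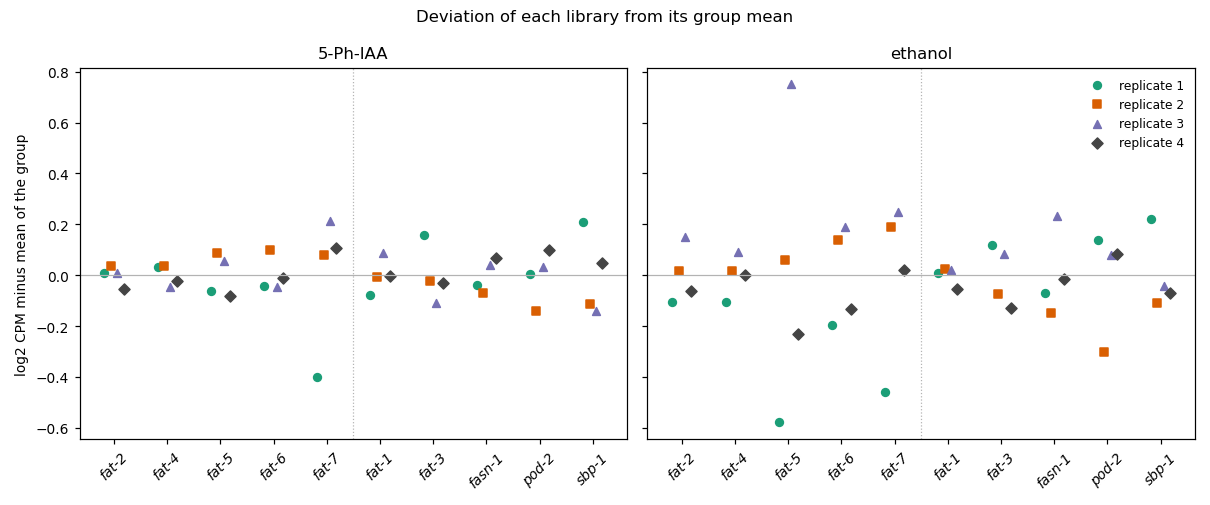
Deviation of each library from the mean of its group in log2 CPM (vertical axis) for each gene, with 5-Ph-IAA on the left and ethanol on the right and marker shapes for the replicate number. In ethanol replicate 1 is the lowest and replicate 3 the highest for the 5 genes left of the dotted line, from -0.578 to 0.75 for fat-5.

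The tested genes whose levels followed the delta-9 desaturases most closely were sought among 7767 genes of at least 10 CPM, by Pearson's r of log2 CPM over the 8 libraries. Picked as the highest of so many, these values are a description and carry no test. For fat-5 the closest gene was fat-2 (r = 0.951, Spearman's rho = 0.976). Next came cest-25 (r = 0.943, rho 0.881) and rig-1 (r = 0.919, rho 0.905). For fat-6 they were fut-1 (r = 0.9754, rho 0.929), tag-196 (r = 0.955, rho 0.976) and F33A8.4 (r = 0.953, rho 0.976). For fat-7 they were acl-12 (r = 0.972, rho 0.786), ctsa-4.2 (r = 0.970, rho 0.976) and F46G10.1 (r = 0.955, rho 0.786). Of these genes, fut-1 at a mean of 10.08 CPM and rig-1 at 10.03 CPM stood just above the bar of 10 CPM. Without the 2 libraries farthest from the median of the desaturase, r lay at 0.839 for fat-2 with fat-5, at 0.970 for fut-1 with fat-6 and at 0.857 for acl-12 with fat-7, and was lowest for F46G10.1 at 0.709. All 8 libraries come from 1 strain, and libraries of the same number deviated together.

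Other genes of the pathway were taken from 5 lists of symbols. Of their 38 genes 36 were tested, and 0 rose and 0 fell in edgeR without or with the block or in DESeq2. At an unadjusted p under 0.05 in edgeR there were 2 without the block (cytb-5.1 and nhr-66). With the block there were 4, as elo-6 and dgat-2 joined them. Of all tested genes 4.41% and 6.91% lay there. The median log2 fold change of the 36 list genes was 0.023, with 28 above 0 and 8 below, against -0.00094 and 49.7% above 0 over all tested genes.

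Elongation, the lengthening of fatty acids by carbon pairs, had 10 of 12 genes tested, with a median log2 fold change of 0.054 and 8 above 0. Its highest value was that of elo-4, a scarce elongase gene at 1.67 ± 0.506 CPM with 5-Ph-IAA and 1.34 ± 0.401 CPM with ethanol (SD, n = 4 each; log2 0.34, SE 0.36, edgeR adjusted p = 0.999). The lowest was elo-9 at -0.13 (SE 0.18, edgeR adjusted p = 0.999). The well expressed elongase elo-2, which acts on palmitic acid, stood at 61.3 ± 14.04 CPM with 5-Ph-IAA and 58.9 ± 19.5 CPM with ethanol (SD, n = 4 each); it was named after its values were seen.

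Electron supply, the cytochrome b5 system that feeds the desaturases, had 3 of 3 genes tested and a median of 0.021. The gene cytb-5.1, a cytochrome b5, had 28.6 ± 2.55 CPM with 5-Ph-IAA and 24.8 ± 1.38 CPM with ethanol (SD, n = 4 each; log2 0.21, SE 0.099, edgeR adjusted p = 0.999). Its groups did not overlap, as for 2.65% of tested genes. The other cytochrome b5, cytb-5.2, had the lowest value at -0.13 (SE 0.092, edgeR adjusted p = 0.999).

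The supply of acetyl-CoA and NADPH had 6 of 6 genes tested, with log2 fold changes from -0.037 for men-1, malic enzyme, to 0.052 for mlcd-1, malonyl-CoA decarboxylase, and a median of 0.0062. This was the list with the narrowest range. Both genes of ATP citrate lyase, which makes cytosolic acetyl-CoA, lay inside that range, with acly-2 at 344.5 ± 8.53 CPM with 5-Ph-IAA and 343.3 ± 16.2 CPM with ethanol (SD, n = 4 each), named after its values were seen.

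Regulators of desaturase genes had 10 of 10 genes tested and a median of 0.021. The nuclear receptor gene nhr-62 was the highest at 0.34 (SE 0.25, edgeR adjusted p = 0.999) and nhr-80, a known activator of delta-9 desaturases, the lowest at -0.16 (SE 0.14, edgeR adjusted p = 0.999). The receptor nhr-49 had 125.5 ± 6.58 CPM with 5-Ph-IAA and 123.8 ± 4.85 CPM with ethanol, and its coactivator mdt-15 had 156.6 ± 9.58 CPM with 5-Ph-IAA and 155.1 ± 11.3 CPM with ethanol (SD, n = 4 each), both named after their values were seen. The receptor gene nhr-66 had a log2 fold change of 0.14 (SE 0.060), with an interval of 1.01-fold to 1.199-fold. Its adjusted p in edgeR was 0.999 without and 0.429 with the block, and it too was named after its values were seen.

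Lipid assembly had 7 of 7 genes tested, all 7 with a log2 fold change above 0 and a median of 0.042. The gene dgat-2, a diacylglycerol acyltransferase that completes triglycerides, was the highest, at 33.1 ± 9.60 CPM with 5-Ph-IAA and 26.1 ± 3.16 CPM with ethanol (SD, n = 4 each; log2 0.33, SE 0.18, edgeR adjusted p = 0.999). It was higher in 4 of 4 pairs, as were 7.17% of all tested genes, and with the block its adjusted p in edgeR was 0.160. Without replicate 1 the blocked fit passed it (log2 0.41, edgeR adjusted p = 0.0258), the single case in which a gene of these lists passed under any alternative tried. The lowest was fitm-2 at 0.010 (SE 0.075, edgeR adjusted p = 0.999).

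**Figure D5:**
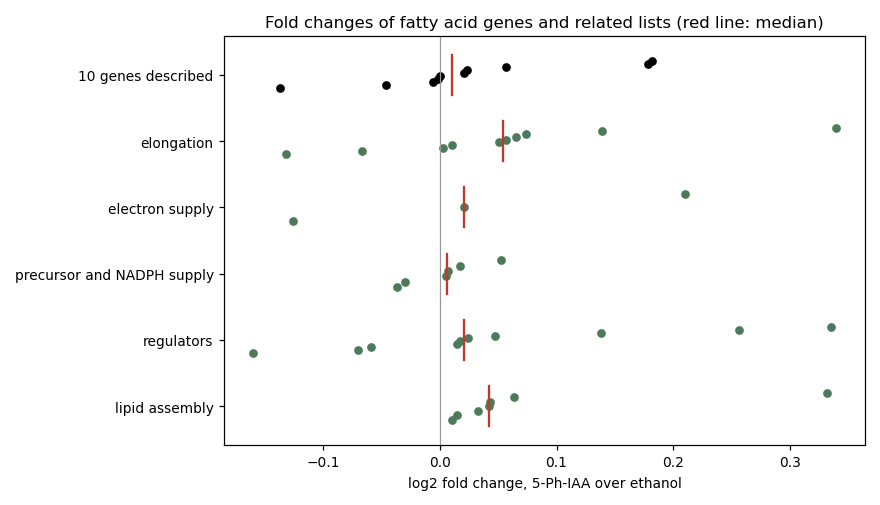
Log2 fold change, 5-Ph-IAA over ethanol (horizontal axis), of the 10 genes described (black) and of the tested genes of the 5 related lists (green), 1 point per gene, with the median of each row as a red line. Medians lie between 0.0062 and 0.054, and no point passed the threshold.

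Of 7 intestinal markers, all tested, 5 had a log2 fold change below 0, and their summed level lay between 944 and 1130 CPM with 5-Ph-IAA and between 1040 and 1243 CPM with ethanol. One of them, vha-6, a proton pump subunit of the intestine, had 249.5 ± 19.7 CPM with 5-Ph-IAA and 283.7 ± 18.1 CPM with ethanol (SD, n = 4 each). With the block vha-6 passed in edgeR at log2 -0.19 (adjusted p = 0.0236), as did 0.732% of all tested genes. It did not pass in edgeR without the block (0.674) or in DESeq2 with the block (0.281). The 2 intestinal markers above 0 were ges-1 at log2 0.24 and elt-2 at log2 0.051, and neither passed with or without the block. For ges-1 the 5-Ph-IAA library was the higher in 4 of 4 pairs, as it was for 7.17% of all tested genes. The intestinal transcription factor gene elt-7 was scarce and had the lowest value of the list, at 3.68 ± 0.351 CPM with 5-Ph-IAA and 5.03 ± 0.538 CPM with ethanol (SD, n = 4 each; log2 -0.44, SE 0.21, edgeR adjusted p = 0.999). The groups of elt-7 did not overlap, which held for 2.65% of all tested genes. Most of the intestinal sum came from act-5, at 560.8 ± 49.7 CPM with 5-Ph-IAA and 616.8 ± 60.4 CPM with ethanol (SD, n = 4 each). The next largest part was that of vha-6. Ethanol replicate 3, the highest for 5 desaturase genes, also had the highest intestinal sum, at 1243 CPM. Ethanol replicate 1, the lowest for them, stood at 1047 CPM and replicate 2 at 1040 CPM. Ethanol replicate 4, the next lowest for these genes, stood above both at 1142 CPM. With 5-Ph-IAA the highest intestinal sum was that of replicate 3, at 1130 CPM. That library was the lowest for fat-4 and fat-6 and the highest for fat-7. Summed germline and oocyte markers lay between 3321 and 3516 CPM with 5-Ph-IAA and between 3160 and 3578 CPM with ethanol, and neuronal markers between 268.7 and 290.5 CPM with 5-Ph-IAA and between 282.6 and 285.7 CPM with ethanol. Most of the neuronal sum came from snb-1, at 170.5 ± 6.69 CPM with 5-Ph-IAA and 172.8 ± 7.74 CPM with ethanol (SD, n = 4 each), and 4 of the 6 neuronal markers had a log2 fold change below 0. The lowest was that of rab-3, a synaptic vesicle gene, at 7.51 ± 1.52 CPM with 5-Ph-IAA and 10.1 ± 2.18 CPM with ethanol (SD, n = 4 each; log2 -0.41, SE 0.18, edgeR adjusted p = 0.999 without and 0.425 with the block). For rab-3 the 5-Ph-IAA library was the lower in 4 of 4 pairs, as it was for 7.02% of all tested genes. The genes elt-2, elt-7, ges-1, act-5, snb-1 and rab-3 were named after their values were seen. Muscle markers ranged from 1088 to 1792 CPM with 5-Ph-IAA and from 1104 to 1772 CPM with ethanol, and epidermal markers from 117.4 to 131.2 CPM with 5-Ph-IAA and from 119.8 to 133.2 CPM with ethanol. All 6 germline and 6 neuronal markers were tested, as were 3 of 4 muscle markers and 2 of 5 epidermal markers, and no matched marker was at 0 in all libraries. The part of tissue makeup in the values of the fatty acid genes was not tested.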

How the data were processed

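Whole-worm RNA-seq of 8 libraries was analysed from the whole-number counts per gene that the authors deposited, 1 file each. The tools named in the submitters' processing notes, without roles, are TopHat2, HTSeq, DESeq2 and FastQC 0.11.5. No genome build, annotation or strand setting is given in the sources used here. The 5 summary lines at the end of each file name no gene. They were left out and held between 47.7% and 48.1% (no gene), 4.14% and 4.55% (more than 1 alignment) and 0.297% and 0.390% (several genes) of all counts. Of 46739 identifiers 46484 were found in Ensembl release 115 (WBcel235), which gave symbols, 1-based coordinates and exon lengths.

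Groups came from the sample titles. Genes passing filterByExpr (12021) were scaled with TMM factors (0.986 to 1.021) and tested with edgeR 4.0.16 in R 4.3.3 (robust quasi-likelihood, two-sided). SE is the absolute log2 fold change over the square root of F, and 95% intervals use the t distribution with the fit's degrees of freedom. DESeq2 1.42.0, limma-voom (limma 3.58.1), other scalings, other filters, left-out libraries and the replicate block were alternatives, and scripts were tested on simulated counts. The 10 genes and the lists were chosen with earlier results of these data known. From each pathway list the text names genes past the threshold with or without the block and the highest and lowest log2 fold change. All 12 replicate pairs differed by more than sampling noise (2.52 to 9.03 in chi-square over its degrees of freedom). Deviations from group means (log2 CPM, prior count 2) correlated at 0.100 to 0.147 between libraries of the same number and at -0.099 to 0.010 between others. The bar of 0.1 was met in every pair, in replicate 3 only just (0.1002). The numbers were therefore taken as pairing the libraries, from the data and not from the labels. The main fit left this pairing out, and the blocked fit, an alternative, held it. With the block the SE was smaller for each of the 10 genes, as for pod-2 (0.046 against 0.087) and fat-6 (0.051 against 0.077). The marker bus-8 matched no identifier by symbol.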

Additional observations from a re-analysis of the deposited data

Results flagged for a closer look

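In ethanol replicate 2 pod-2, the acetyl-CoA carboxylase gene, stood at 272.1 CPM, away from the other 3 ethanol libraries at 353.5 to 368.9 CPM. Its gap to the nearest library was 0.841 of the range of the group, above Dixon's 95% critical value for 4 libraries. Both groups of the 10 genes, 20 groups in all, were examined this way, and chance marks about 1 in 20.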

How the results depend on the processing

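None of the 10 genes passed under any of the 21 alternatives, and 183 of the 210 single-gene values kept their direction. The other 27 turned sign, in fat-1, fat-2, fat-4, fat-6, fasn-1, pod-2 and sbp-1, and fat-3, fat-5 and fat-7 turned in none. With all libraries kept, the sign turned for fat-1 with upper quartile factors (0.00052) and with no filter (0.00046), for fat-6 with at least 10 CPM in 4 libraries (-0.00054) and for fasn-1 with limma-voom (0.00031). Leaving out 1 library, the log2 fold changes ran from -0.032 to 0.025 for fat-1, -0.013 to 0.071 for fat-2, -0.0094 to 0.051 for fat-4, -0.060 to 0.062 for fat-6, -0.055 to 0.074 for fasn-1, -0.033 to 0.102 for pod-2 and -0.123 to 0.030 for sbp-1. With the replicate block and a number left out, the sign turned for fat-1 without replicate 1 (0.027) and 2 (0.0088), for fat-2 (-0.014) and fat-4 (-0.020) without replicate 1, for fat-6 without replicate 1 (-0.041) and 4 (-0.033) and for fasn-1 without replicate 3 (0.062), and the cause was not tested. The median over the 10 genes ran from -0.012 to 0.068. The count of all genes past the threshold was 12 and became 62 with no filter, 3 with at least 10 CPM in 4 libraries, 29 with DESeq2, 88 with the replicate block, and with that block 24 in DESeq2 and 84 in limma-voom. It ran from 6 (without 5-Ph-IAA replicate 4) to 19 (without 5-Ph-IAA replicate 3), and with the block stood at 82, 51, 78 and 92 without replicate 1, 2, 3 and 4. The block changed the call of none of the 10 genes. Of the list genes 0 passed, except 1 without replicate 1 in the blocked fit. The values of fat-5 rest on 66 to 180 reads per library, and its ethanol libraries had a coefficient of variation of 41.5%.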
